A study of Mus musculus with 8 samples.

Results

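The proteoglycan and hyaluronan genes of mouse colon fibroblasts are described here in irradiated and non-irradiated cultures. The 40 members were taken by gene symbol from a list of small leucine-rich proteoglycans, hyaluronan-binding proteoglycans, cell-surface and basement membrane proteoglycans, hyaluronan synthases, hyaluronan-degrading genes and heparan sulfate enzymes. The list was drawn up with earlier results of these data known, although its rule uses no measured value. All 40 were found among the 55573 genes counted per library. The study title concerns inflammatory fibroblasts and therapy resistance in rectal cancer. The irradiated group holds 4 libraries of fibroblasts that received 3 doses of 2 Gy, and the non-irradiated group holds 4 libraries of fibroblasts that received none. Both groups were C57BL6/J colon fibroblasts in flat culture, in Advanced DMEM F12 containing 10% FBS, and were collected 72 h after the first irradiation. All 8 libraries share exposure to APTKA conditioned medium, where the labels leave APTKA unexplained, so no culture without that medium enters any comparison. The design text calls the 4 samples of a group independent, but nothing says that they came from separate animals or cultures. A p-value here weighs a difference against the spread over these samples, part or all of which may be technical.

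A proteoglycan is a core protein that carries long sulfated sugar chains, heparan sulfate or chondroitin and dermatan sulfate, built in the Golgi from nucleotide sugars and a sulfate donor. Hyaluronan is a related chain that has no core protein and no sulfate: synthases at the plasma membrane extrude it, link proteins and large proteoglycans bind to it, and hyaluronidases cut it. In connective tissue such as the gut wall, fibroblasts make most of these molecules, which space collagen fibrils, hold water and bind growth factors, and the pattern of sulfate along heparan sulfate affects which factors bind.

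Total counts were 30203137 to 36497990 in irradiated libraries and 28731227 to 37157216 in non-irradiated libraries. Levels are given as CPM, counts scaled to library size with TMM factors, and where genes are compared with each other as RPKM, CPM per kilobase of exonic length. Summed over 10 fibroblast markers, the level was 13940 to 15290 CPM in irradiated and 15490 to 18160 CPM in non-irradiated libraries, without overlap. Markers of other cells were low: 9 epithelial genes summed to at most 1.62 CPM in irradiated and 2.03 CPM in non-irradiated libraries, 9 leukocyte genes to at most 5.50 CPM in irradiated and 5.34 CPM in non-irradiated libraries, and 6 endothelial genes to at most 5.40 CPM in irradiated and 5.02 CPM in non-irradiated libraries. The defining markers Tyrobp and Tie1 had no count in any library. The 6 smooth muscle and pericyte genes, some of which cultured fibroblasts also express, summed to 401 to 462 CPM in irradiated and 436 to 476 CPM in non-irradiated libraries. Of the 5 tested, 1 was called higher (Notch3), beside 2.59% of all tested genes, and 1 lower (Actg2), beside 4.15%. The part of these genes in the results below was not tested. Mitochondrial ribosomal RNA set irradiated I and II apart, at 15130 and 15260 CPM, against 4358 and 5934 CPM in irradiated III and IV and 4178 to 5915 CPM in non-irradiated libraries.

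Few of these genes differed between irradiated and non-irradiated fibroblasts, and most differences were small. Sulf2, which encodes a sulfatase that trims heparan sulfate outside the cell, rose 1.39-fold. Transcripts of 3 other members were lower: asporin (Aspn) fell by 27.4%, glypican 6 (Gpc6) fell by 25.1% and biglycan (Bgn) fell by 15.3%. Of the 40 members, 34 passed the filter on low counts and were tested. By edgeR's quasi-likelihood test with Benjamini-Hochberg adjustment over 15259 genes, 1 of the 34 was called higher, where 2.59% of all tested genes were, and 3 were called lower, where 4.15% were. The count of higher members is near that background and the count of lower ones differs from it by very few genes, so neither is a result about the members as a class. At an unadjusted p under 0.05 there were 4 higher and 6 lower members, 10 of 34 beside 3228 of 15259 tested genes, and DESeq2 called 2 higher and 4 lower. The median log2 fold change was -0.01 over the 34 members and 0.00 over all tested genes, and the median size of the change was 0.10 and 0.09. Of the members, 28 changed by less than 1.2-fold (82.4%, against 85.3% of all tested genes). In 7 of 34 members (20.6%) the CPM ranges of both groups were separate, against 14.2% of all tested genes. Sulf2, Ext1 and Hapln3 lay wholly above in irradiated libraries, and Bgn, Aspn, Gpc6 and Hspg2 wholly below. As in any bulk culture, fewer cells of a type and less RNA per cell cannot be told apart in these values.

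**Figure D1:**
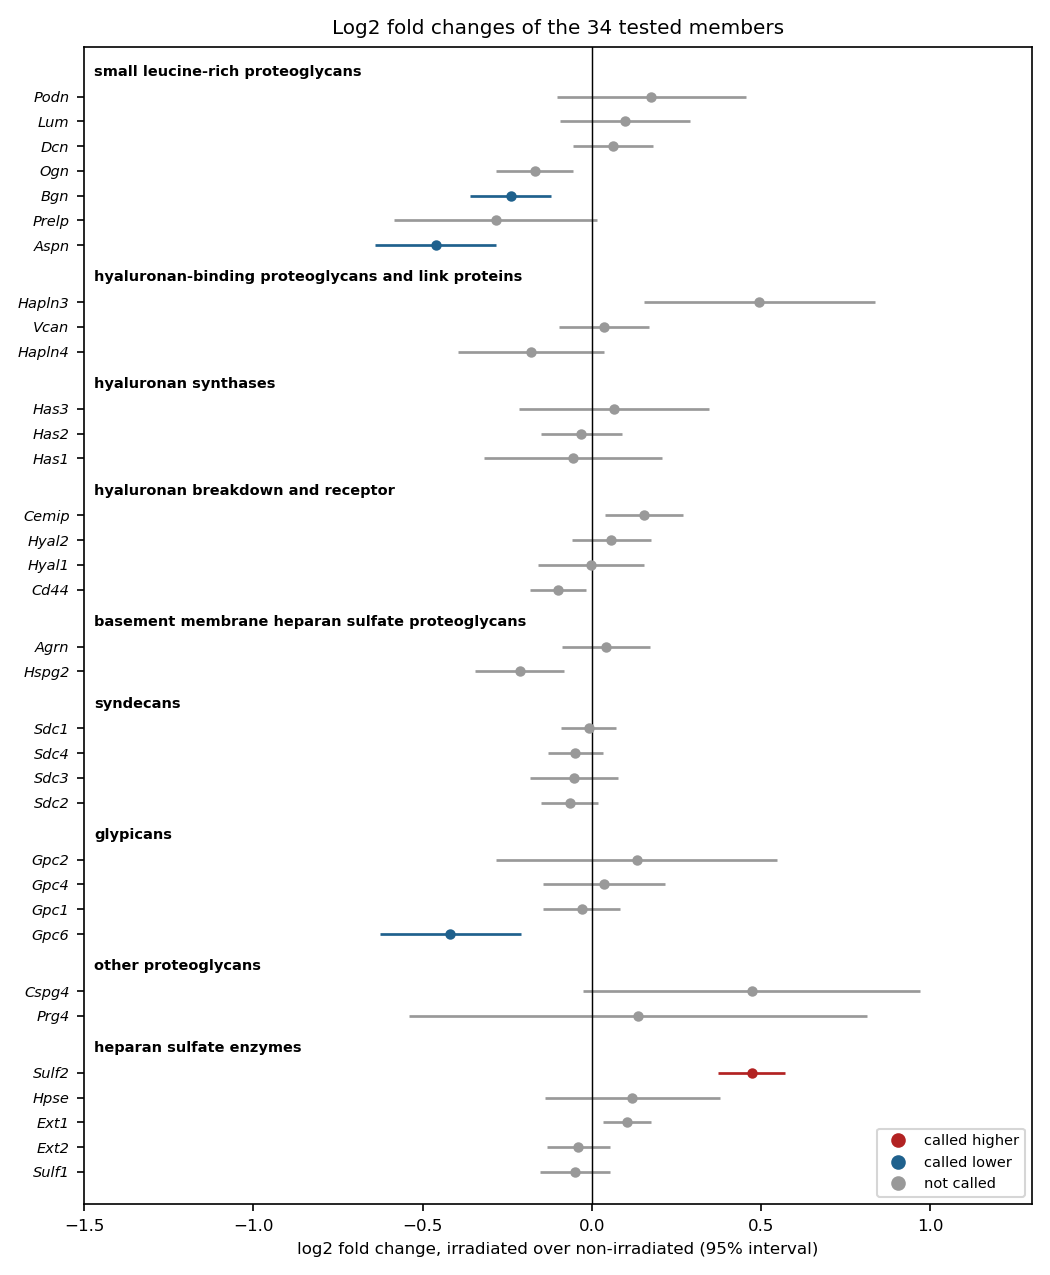
The log2 fold change of each of the 34 tested members, irradiated over non-irradiated, with its 95% interval, grouped by class along the vertical axis; colour marks the edgeR call. Sulf2 at 0.47 is the single member called higher, Aspn at -0.46, Gpc6 at -0.42 and Bgn at -0.24 are those called lower, and the syndecans and the abundant synthase Has2 lie close to 0.

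The sequences just before the transcription start of Sulf2, Aspn and Bgn are shown because these are the called members with a RefSeq promoter entry, and they differ widely in base composition there. They are the 250 bases before the RefSeq start on GRCm38.p6, read 5′ to 3′ on the gene's own strand: chr2:166155684-166155933 on the minus strand for Sulf2, chr13:49544193-49544442 on the plus strand for Aspn, and chrX:73483351-73483600 on the plus strand for Bgn. RefSeq lists a further start for Sulf2, not printed here. Capitals mark the letters TATAAA, the GC box letters GGGCGG and the letters CCAAT, each on either strand.
Sulf2: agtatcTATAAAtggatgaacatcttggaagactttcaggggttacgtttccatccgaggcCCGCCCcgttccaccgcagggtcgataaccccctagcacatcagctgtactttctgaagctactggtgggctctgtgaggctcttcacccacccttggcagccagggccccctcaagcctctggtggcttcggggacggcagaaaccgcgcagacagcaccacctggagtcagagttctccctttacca
Aspn: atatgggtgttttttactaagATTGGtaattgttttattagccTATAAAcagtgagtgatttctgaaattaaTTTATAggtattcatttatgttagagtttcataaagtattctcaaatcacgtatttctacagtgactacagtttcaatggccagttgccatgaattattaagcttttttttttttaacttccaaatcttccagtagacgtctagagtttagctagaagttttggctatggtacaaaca
Bgn: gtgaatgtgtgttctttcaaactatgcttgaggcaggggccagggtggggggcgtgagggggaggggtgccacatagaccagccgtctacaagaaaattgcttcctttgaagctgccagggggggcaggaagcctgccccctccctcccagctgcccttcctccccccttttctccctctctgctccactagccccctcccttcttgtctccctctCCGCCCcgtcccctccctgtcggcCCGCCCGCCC
The Aspn stretch has 30.0% G and C, with 2 TATAAA matches and 1 CCAAT match. The Bgn stretch has 64.4% G and C, with 3 GC boxes, of which the final 2 overlap each other. The Sulf2 stretch has 57.2% G and C, with 1 TATAAA match starting at position -244 and 1 GC box at -189, counted from the start. Over 32851 RefSeq promoter windows of the same length, 12.4% held TATAAA, 32.7% GGGCGG and 33.9% CCAAT on either strand, so these letters are common. None of the 3 printed stretches held TGANTCA, the AP-1 letters found in 6.75% of windows, GGAATG, the TEAD letters found in 12.6%, or a p53 half-site, found in 7.13%. A match is a description of letters, and its absence says only that they are not in this window. RefSeq entries were matched for 29 of the 40 members. Gpc6 is named only.

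Sulf2 and Sulf1 are the extracellular sulfatases that remove sulfate from finished heparan sulfate chains. Of this pair Sulf2 alone was called, beside 2.59% of all tested genes called higher. Sulf2 (ENSMUSG00000006800, chr2:166073089-166155663, minus strand, GRCm38) stood at 43.6, 40.2, 44.3 and 43.4 CPM in irradiated I to IV, against 31.8, 32.0, 29.7 and 30.2 CPM in non-irradiated I to IV. Every irradiated library lay above every non-irradiated one, and each group was tight. The means were 42.9 ± 1.82 CPM in irradiated and 30.9 ± 1.16 CPM in non-irradiated libraries (SD, n = 4 each), a log2 fold change of 0.47 (SE 0.05, 95% interval 0.37 to 0.57, edgeR adjusted p = 4.38e-05). The call held in all 15 alternatives run, with log2 fold changes of 0.45 to 0.50; without irradiated I and II it was 0.50 (edgeR adjusted p = 0.000769). Exons of Sulf2 share 154 bases, 2.62% of its exonic length, with Ncoa3 on the opposite strand.

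Sulf1 averaged 65.6 ± 2.08 CPM in irradiated and 67.9 ± 4.18 CPM in non-irradiated libraries, and its log2 fold change of -0.05 was not called (95% interval -0.15 to 0.05, edgeR adjusted p = 0.599). The ratio of Sulf2 to Sulf1 RPKM within a library was 1.23, 1.20, 1.34 and 1.26 in irradiated I to IV, against 0.857, 0.877, 0.922 and 0.853 in non-irradiated I to IV. The ratio was higher in every irradiated library than in any non-irradiated one. Whether the ratio lies above or below 1 depends on the length used, since with the longest transcript the mean level over all libraries is 11.9 RPKM for Sulf1 and 8.06 RPKM for Sulf2; the order between the groups does not depend on it.

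The other heparan sulfate enzymes were not called. Ext1, a subunit of the polymerase that extends the chain and the most abundant enzyme of the class per length (61.1 RPKM over all libraries), stood at 519, 511, 520 and 493 CPM in irradiated I to IV, against 486, 469, 473 and 475 CPM in non-irradiated I to IV. The groups did not overlap, yet the distance between them was small. The means were 511 ± 12.5 CPM in irradiated and 476 ± 7.29 CPM in non-irradiated libraries, with a log2 fold change of 0.10 (95% interval 0.03 to 0.17) that edgeR did not call (adjusted p = 0.0815) and DESeq2 did (adjusted p = 0.0326). Its partner subunit Ext2 averaged 103 ± 3.02 CPM in irradiated and 106 ± 5.15 CPM in non-irradiated libraries (log2 fold change -0.04, edgeR adjusted p = 0.653). Heparanase (Hpse), which cuts the chain, averaged 2.53 ± 0.276 CPM in irradiated and 2.31 ± 0.144 CPM in non-irradiated libraries (log2 fold change 0.12, edgeR adjusted p = 0.626). Summed RPKM of the 5 enzymes was 89.0 to 93.1 in irradiated and 84.2 to 87.6 in non-irradiated libraries. Ext1 makes up 69.2% of the level. Both Ext1 (63.2 RPKM in irradiated and 58.9 in non-irradiated libraries) and Sulf2 (7.3 and 5.27 RPKM) entered the difference. Sulf1 and Ext2 were slightly lower in irradiated libraries.

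**Figure D2:**
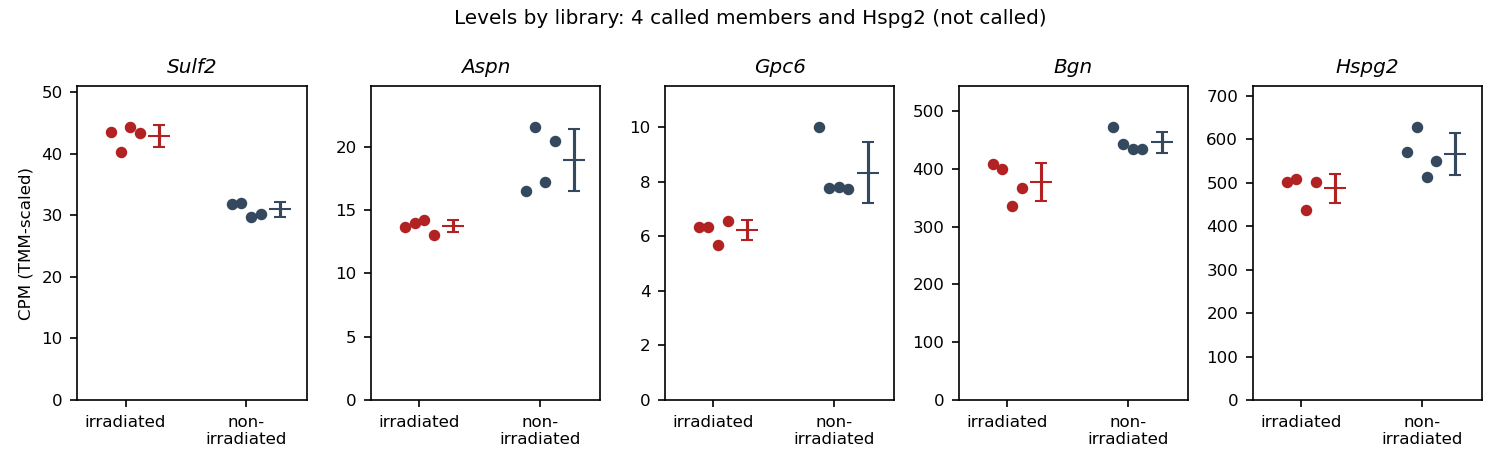
CPM of Sulf2, Aspn, Gpc6, Bgn and Hspg2 in each library, irradiated left of non-irradiated in each panel, with points for single libraries and the group mean and SD beside them; each vertical axis starts at 0. The groups do not overlap in any of the 5 panels, with irradiated libraries above for Sulf2 (40.2 to 44.3 CPM against 29.7 to 32.0 CPM) and below for the other genes.

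Small leucine-rich proteoglycans bind collagen fibrils and several growth factors, and in these fibroblasts 2 of the 7 tested ones fell, beside 4.15% of all tested genes. None of the 7 was called higher by edgeR, beside 2.59%, or by DESeq2, and none was higher at an unadjusted p under 0.05; 3 of them (Dcn, Lum and Podn) had positive estimates. Asporin (Aspn, ENSMUSG00000021388, chr13:49544443-49567565), which binds collagen, stood at 13.7, 14.0, 14.2 and 13.1 CPM in irradiated I to IV, against 16.5, 21.6, 17.2 and 20.4 CPM in non-irradiated I to IV. All irradiated libraries were below all non-irradiated ones, and non-irradiated II and IV were the highest. The means were 13.7 ± 0.503 CPM in irradiated and 18.9 ± 2.45 CPM in non-irradiated libraries, a log2 fold change of -0.46 (SE 0.08, 95% interval -0.64 to -0.28, edgeR adjusted p = 0.00415), called in all 15 alternatives and at -0.47 without irradiated I and II. Biglycan (Bgn, ENSMUSG00000031375, chrX:73483602-73495933), which carries chondroitin or dermatan sulfate, stood at 408, 399, 336 and 367 CPM in irradiated I to IV, against 473, 443, 434 and 435 CPM in non-irradiated I to IV. The groups were again separate, with irradiated III the lowest of all. The means were 378 ± 32.9 CPM in irradiated and 446 ± 18.2 CPM in non-irradiated libraries, with a log2 fold change of -0.24 (SE 0.06, 95% interval -0.36 to -0.12, edgeR adjusted p = 0.019). The Bgn call was lost without irradiated IV (adjusted p = 0.0646) and without non-irradiated I (adjusted p = 0.0614), and without irradiated I and II the log2 fold change was -0.34 (adjusted p = 0.00495).

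Decorin (Dcn), the close relative of biglycan that also binds collagen and TGF-beta, was the most abundant member per length at 141 RPKM over all libraries, rank 145 of the 15259 tested genes. It stood at 828, 856, 853 and 828 CPM in irradiated I to IV, against 744, 913, 809 and 756 CPM in non-irradiated I to IV. The irradiated values lay inside the range of the non-irradiated ones, which spread wider. The log2 fold change was 0.06 (95% interval -0.06 to 0.18, edgeR adjusted p = 0.561), an interval that holds neither the change of Aspn nor that of Bgn. Within libraries the Bgn to Dcn ratio of RPKM was 0.472, 0.446, 0.377 and 0.424 in irradiated I to IV, against 0.608, 0.464, 0.513 and 0.551 in non-irradiated I to IV, so irradiated I lay above non-irradiated II and the groups overlapped.

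The other family members were not called by edgeR. Osteoglycin (Ogn), a collagen-associated relative, averaged 35.5 ± 1.07 CPM in irradiated and 39.9 ± 2.90 CPM in non-irradiated libraries (log2 fold change -0.17, adjusted p = 0.0777; without non-irradiated III, adjusted p = 0.0121). Prelp, which anchors basement membrane to connective tissue, averaged 3.65 ± 0.384 CPM in irradiated and 4.47 ± 0.913 CPM in non-irradiated libraries (log2 fold change -0.28, adjusted p = 0.262). Lumican (Lum), a keratan sulfate proteoglycan of collagen fibrils, averaged 5.81 ± 0.215 CPM in irradiated and 5.44 ± 0.539 CPM in non-irradiated libraries (log2 fold change 0.10, adjusted p = 0.575). Podocan (Podn) averaged 4.72 ± 0.694 CPM in irradiated and 4.20 ± 0.601 CPM in non-irradiated libraries (log2 fold change 0.18, adjusted p = 0.481). Summed RPKM of the 9 genes was 230 ± 5.14 in irradiated and 239 ± 13.1 in non-irradiated libraries, and Dcn made up 60.1% of it. The summed fibroblast markers were lower in irradiated libraries as well, and collagen chains held most of that sum. Col3a1 averaged 5571 CPM in irradiated and 6096 CPM in non-irradiated libraries, and Col1a2 4539 and 5353 CPM. Of the 10 marker genes 2 were called lower, beside 4.15% of all tested genes. These were Col1a2 (log2 fold change -0.24, edgeR adjusted p = 0.0101) and vimentin (Vim, -0.14, edgeR adjusted p = 0.0462). Of the 10, 9 had a negative sign, among them Pdgfra at -0.03, and Pdpn was at 0.08. The part of the marker list in the lower Aspn and Bgn was not tested.

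Several of these genes lie side by side in the genome, and around Aspn the estimate of Ecm2 had the opposite sign and that of Ogn the same sign. On chromosome 13, Ecm2, Aspn, Omd and Ogn follow each other on the plus strand with gaps of 11.7, 14.9 and 15.2 kb. Ecm2, a leucine-rich relative outside the member list, had a log2 fold change of 0.42 (95% interval 0.09 to 0.75) that was not called (edgeR adjusted p = 0.126), beside -0.46 for Aspn. The intervals of Ecm2 and Aspn do not meet, but Ecm2 was added after its values were seen. Ogn was at -0.17 and not called, and Omd was not tested. Levels along this stretch differed widely too: 0.260 RPKM for Ecm2, 6.93 for Aspn, 0.0597 for Omd and 14.7 for Ogn over all libraries. On chromosome 10, Dcn at 141 RPKM is followed after 47.0 kb by Lum at 2.30 RPKM, and then by Kera, which had no count in any library.

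Glypicans are heparan sulfate proteoglycans held at the cell surface by a lipid anchor. Of the 4 tested ones Gpc6 alone was called, beside 4.15% of all tested genes called lower. Gpc6 (ENSMUSG00000058571, chr14:116925315-117976544) stood at 6.33, 6.33, 5.70 and 6.56 CPM in irradiated I to IV, against 10.0, 7.76, 7.82 and 7.75 CPM in non-irradiated I to IV. Non-irradiated I stood above the rest of its group, and the groups did not overlap. The means were 6.23 ± 0.369 CPM in irradiated and 8.34 ± 1.12 CPM in non-irradiated libraries, a log2 fold change of -0.42 (SE 0.10, 95% interval -0.63 to -0.21, edgeR adjusted p = 0.0193). Without non-irradiated I it was -0.32 and still called (adjusted p = 0.0387). The call was lost without irradiated III (-0.38, adjusted p = 0.0632) and without irradiated I and II (-0.45, adjusted p = 0.0849).

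Gpc1, the most abundant glypican at 32.4 RPKM, stood at 166, 160, 168 and 167 CPM in irradiated I to IV, against 186, 163, 174 and 152 CPM in non-irradiated I to IV. The groups overlapped (log2 fold change -0.03, 95% interval -0.15 to 0.08, edgeR adjusted p = 0.798), and 18.9% of the exonic length of Gpc1 lies opposite exons of Ankmy1. The ratio of Gpc6 to Gpc1 RPKM was 0.0306, 0.0318, 0.0272 and 0.0316 in irradiated I to IV, against 0.0432, 0.0383, 0.0360 and 0.0410 in non-irradiated I to IV. The ratio was lower in each irradiated library than in any non-irradiated one. Gpc4 averaged 30.3 ± 3.95 CPM in irradiated and 29.6 ± 2.25 CPM in non-irradiated libraries (log2 fold change 0.03, adjusted p = 0.861), and Gpc2 averaged 1.73 ± 0.204 CPM in irradiated and 1.57 ± 0.450 CPM in non-irradiated libraries (log2 fold change 0.13, adjusted p = 0.756). Of the exonic length of Gpc2, 55.6% is shared with Gm43720 on the same strand, which makes its count uncertain.

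Perlecan (Hspg2) and agrin (Agrn) are the large heparan sulfate proteoglycans of basement membranes, similar in level per length, and neither was called. Hspg2 stood at 502, 509, 438 and 502 CPM in irradiated I to IV, against 571, 629, 513 and 549 CPM in non-irradiated I to IV. The groups did not overlap, although irradiated I, II and IV lay close to non-irradiated III. The means were 488 ± 33.3 CPM in irradiated and 566 ± 48.4 CPM in non-irradiated libraries, and the log2 fold change of -0.21 (SE 0.06, 95% interval -0.35 to -0.08) just missed the edgeR threshold (adjusted p = 0.0534). It passed in 5 of the 15 alternatives, among them DESeq2 (adjusted p = 0.0117) and the fit without non-irradiated III (-0.26, adjusted p = 0.0205). Agrn stood at 361, 381, 339 and 338 CPM in irradiated I to IV, against 379, 303, 344 and 352 CPM in non-irradiated I to IV. Its groups overlapped, with a log2 fold change of 0.04 (95% interval -0.09 to 0.17, adjusted p = 0.747). The ratio of Hspg2 to Agrn RPKM was 0.903, 0.867, 0.838 and 0.963 in irradiated I to IV, against 0.979, 1.35, 0.967 and 1.01 in non-irradiated I to IV. The groups were separate by a narrow margin, between irradiated IV and non-irradiated III.

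**Figure D3:**
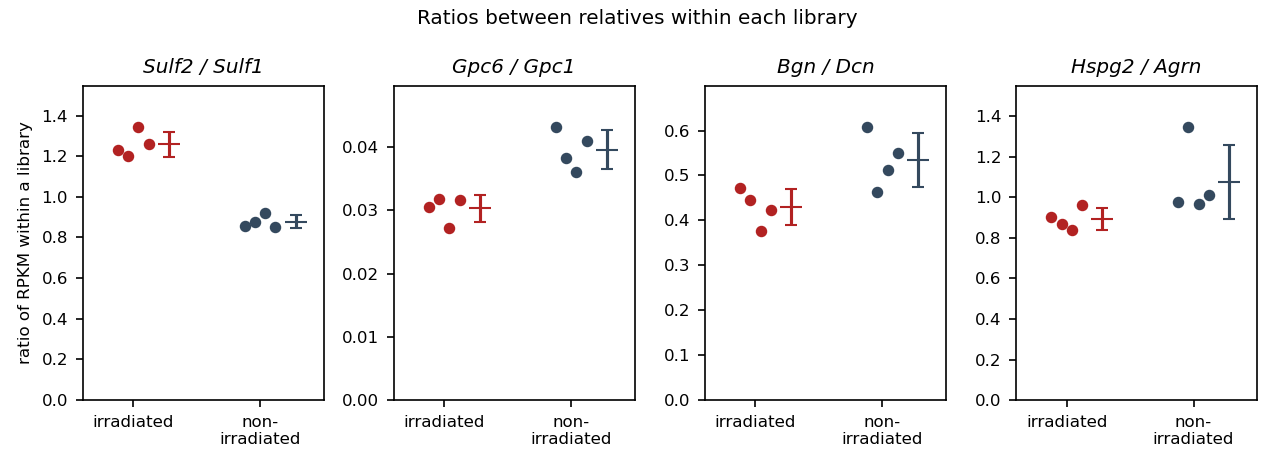
Ratios of RPKM between related genes within each library, irradiated left of non-irradiated, with the group mean and SD beside the points; each vertical axis starts at 0. The Sulf2 to Sulf1 ratio lies between 1.20 and 1.34 in irradiated and between 0.853 and 0.922 in non-irradiated libraries, while the Bgn to Dcn ratios overlap.

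Syndecans, the transmembrane heparan sulfate proteoglycans that act as co-receptors for growth factors and matrix, differed little between the groups. Sdc4, the most abundant at 93.7 RPKM, stood at 242, 228, 239 and 228 CPM in irradiated I to IV, against 238, 256, 242 and 234 CPM in non-irradiated I to IV. The groups overlapped, and the log2 fold change was -0.05 (95% interval -0.13 to 0.03, edgeR adjusted p = 0.507). Sdc1 averaged 160 ± 3.01 CPM in irradiated and 161 ± 6.24 CPM in non-irradiated libraries (log2 fold change -0.01, adjusted p = 0.914). Sdc2 averaged 92.0 ± 1.97 CPM in irradiated and 96.2 ± 3.15 CPM in non-irradiated libraries (log2 fold change -0.07, adjusted p = 0.367). Sdc3 averaged 51.4 ± 1.66 CPM in irradiated and 53.3 ± 5.31 CPM in non-irradiated libraries (log2 fold change -0.05, adjusted p = 0.678). None of the 4 was called by edgeR or DESeq2, none had an unadjusted p under 0.05, and their 95% intervals lay within -0.18 to 0.08.

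Hyaluronan synthase expression rested on Has2, which made up 91.2% of the summed synthase RPKM. Has2 stood at 41.8, 44.1, 45.1 and 42.6 CPM in irradiated I to IV, against 41.1, 46.5, 41.5 and 48.5 CPM in non-irradiated I to IV. The irradiated values fell inside the non-irradiated range. The means were 43.4 ± 1.46 CPM in irradiated and 44.4 ± 3.68 CPM in non-irradiated libraries, with a log2 fold change of -0.03 (95% interval -0.15 to 0.09, edgeR adjusted p = 0.798). Has1 averaged 2.48 ± 0.0583 CPM in irradiated and 2.58 ± 0.347 CPM in non-irradiated libraries (log2 fold change -0.05, adjusted p = 0.849), and Has3 averaged 2.91 ± 0.431 CPM in irradiated and 2.77 ± 0.276 CPM in non-irradiated libraries (log2 fold change 0.07, adjusted p = 0.826). None of the 3 synthases was called by edgeR or DESeq2 or had an unadjusted p under 0.05, and each sign of change turned when single libraries were left out.

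The genes that bind and cut hyaluronan were not called either, by edgeR or by DESeq2. Of the 4, 2 had an unadjusted p under 0.05, in opposite directions, beside 3228 of 15259 tested genes. Cd44, the main cell-surface receptor of hyaluronan, stood at 381, 390, 364 and 392 CPM in irradiated I to IV, against 422, 421, 392 and 401 CPM in non-irradiated I to IV. The irradiated values were mostly lower, and the groups overlapped slightly, since irradiated IV lay just above non-irradiated III. The means were 382 ± 13.0 CPM in irradiated and 409 ± 15.1 CPM in non-irradiated libraries, with a log2 fold change of -0.10 (95% interval -0.18 to -0.02, adjusted p = 0.144). Cemip, which takes part in hyaluronan depolymerization, averaged 63.6 ± 3.71 CPM in irradiated and 57.2 ± 3.67 CPM in non-irradiated libraries (log2 fold change 0.15, 95% interval 0.04 to 0.27, adjusted p = 0.112). The surface hyaluronidase Hyal2 averaged 68.0 ± 3.73 CPM in irradiated and 65.4 ± 4.51 CPM in non-irradiated libraries (log2 fold change 0.06, adjusted p = 0.595). The lysosomal hyaluronidase Hyal1 averaged 9.56 ± 0.677 CPM in irradiated and 9.58 ± 0.462 CPM in non-irradiated libraries (log2 fold change 0.00, adjusted p = 0.99); 50.8% of its exonic length is shared with Naa80 on the same strand, so its count is uncertain. Hyal2 at 20.3 RPKM and Hyal1 at 2.53 RPKM are neighbours on chromosome 9, 4.15 kb apart.

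Versican (Vcan), the large chondroitin sulfate proteoglycan that binds hyaluronan, held 93.4% of the RPKM of its class. It stood at 443, 445, 407 and 454 CPM in irradiated I to IV, against 399, 477, 384 and 446 CPM in non-irradiated I to IV. The irradiated values lay within the non-irradiated range (log2 fold change 0.04, 95% interval -0.10 to 0.17, edgeR adjusted p = 0.795). Link proteins join hyaluronan to such proteoglycans, and here Hapln3 had 1.77, 1.63, 1.60 and 1.94 CPM in irradiated I to IV, against 1.22, 1.53, 1.14 and 1.04 CPM in non-irradiated I to IV. Its groups did not overlap, but with 235 counts in the irradiated group and 158 in the non-irradiated group the interval was wide (log2 fold change 0.49, 95% interval 0.15 to 0.84, adjusted p = 0.0819). It passed only without non-irradiated II (0.62, adjusted p = 0.0419). Hapln4 averaged 6.21 ± 0.515 CPM in irradiated and 7.05 ± 0.894 CPM in non-irradiated libraries (log2 fold change -0.18, adjusted p = 0.332).

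Among the other proteoglycans, Prg4 (lubricin) had 0.360, 0.575, 0.358 and 0.461 CPM in irradiated I to IV, against 0.209, 0.477, 0.325 and 0.567 CPM in non-irradiated I to IV. The groups overlapped (log2 fold change 0.14, edgeR adjusted p = 0.856), and Prg4 shares 4.77% of its exonic length with the far more highly counted Tpr on the opposite strand. Cspg4, a transmembrane chondroitin sulfate proteoglycan known from pericytes, averaged 0.757 ± 0.162 CPM in irradiated and 0.550 ± 0.0827 CPM in non-irradiated libraries (log2 fold change 0.47, 95% interval -0.03 to 0.97, adjusted p = 0.262).

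The 6 members left out by the low-count filter were near or under the detection limit: a library with 0 counts still allows 3 by counting error alone. The collagen-binding Fmod had 28 counts over the 4 irradiated and 30 over the 4 non-irradiated libraries, and Omd had 17 in irradiated and 18 in non-irradiated ones. Acan, the aggrecan of cartilage, had 3 counts in irradiated libraries and 0 in non-irradiated ones, and the link protein Hapln1 had 1 in each group. Gpc3 had 4 counts in irradiated and 5 in non-irradiated libraries, and Srgn, the granule proteoglycan of blood cells, had 6 in irradiated and 4 in non-irradiated ones. These counts cannot show a difference between the groups.

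**Figure D4:**
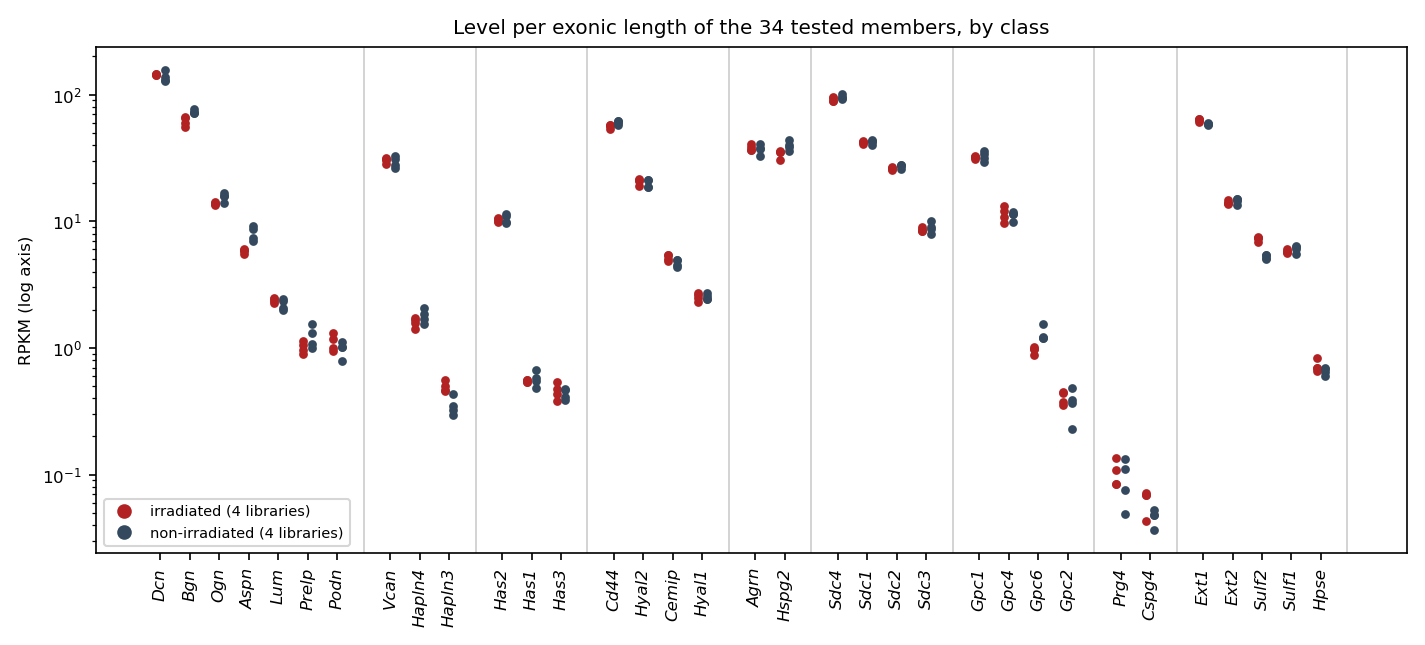
RPKM of the 34 tested members in each library on a log axis, by class, irradiated libraries left of non-irradiated ones. The levels span from Dcn at 141 RPKM to Cspg4 at 0.0548 RPKM (means over all libraries), and within each class 1 gene or a few hold most of the signal.

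Summed RPKM of all 40 members was 736 ± 12.5 in irradiated and 751 ± 22.3 in non-irradiated libraries, with overlapping ranges of 724 to 747 and 731 to 780. The order of genes held in both groups at the top: Dcn, with 144 RPKM in irradiated and 138 RPKM in non-irradiated libraries, was followed by Sdc4, with 92.1 RPKM in irradiated and 95.3 RPKM in non-irradiated libraries. Below these, Bgn had 61.9 RPKM in irradiated and 73.1 RPKM in non-irradiated libraries, and Ext1 had 63.2 RPKM in irradiated and 58.9 RPKM in non-irradiated libraries. Cd44 had 56.3 RPKM in irradiated and 60.4 RPKM in non-irradiated libraries, where it stood above Ext1. The place of Bgn depends on the length used: with its longest transcript in place of all exons it had 155 RPKM over all libraries, close to Dcn at 176 RPKM on that length. Among the 21 members with at least 10 CPM in irradiated libraries, most varied more in non-irradiated libraries. The coefficient of variation had a median of 3.36% (1.80 to 13.1%) in irradiated and 6.90% (1.53 to 13.0%) in non-irradiated libraries, and was larger in non-irradiated ones for 17 of the 21. Over all genes with enough counts, 2 libraries at a time were compared by chi-square per degree of freedom. That value was 16 to 27.6 for irradiated I or II against III or IV. It was 5.46 between irradiated I and II, 5.12 between III and IV, and 5.29 to 13.9 among non-irradiated pairs. Highly counted genes weigh most in it, so it cannot be set against the coefficients of variation above. The mitochondrial ribosomal RNA that set irradiated I and II apart entered these values, and its share in them was not tested. Irradiated III was the lowest library of its group for 16 of 34 members, and non-irradiated I was the highest of its group for 17.

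The wider machinery that builds and cuts the sugar chains was described through 103 further genes in 7 lists, of which 79 were tested. By edgeR, 1 was called higher and 4 lower, beside 2.59% and 4.15% of all tested genes, and their median log2 fold change was -0.03. At an unadjusted p under 0.05 there were 3 higher and 18 lower genes, 21 of 79 beside 3228 of 15259 tested genes, and DESeq2 called 1 higher and 6 lower. In 14 of the 79 (17.7%, beside 14.2% of all tested genes) the groups did not overlap, 2 with irradiated libraries above and 12 with them below, where all tested genes had 936 above and 1231 below. Without irradiated I and II, the calls were 1 higher (B3galt6) and 1 lower (Hmmr).

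The list of nucleotide sugar and sulfate donors held 3 lower calls among its 14 genes, beside 4.15% of all tested genes, and 11 of the 14 had a negative sign, beside 7587 of 15259. These counts were not tested against that background, and 2 of the 3 calls were lost in most fits without 1 library. Gfpt2, an isoform of the enzyme that feeds the hexosamine pathway towards UDP-N-acetylglucosamine, stood at 16.4, 16.7, 16.5 and 17.4 CPM in irradiated I to IV, against 20.6, 18.3, 22.1 and 20.9 CPM in non-irradiated I to IV. Every irradiated library was below every non-irradiated one (log2 fold change -0.29, SE 0.06, edgeR adjusted p = 0.0128), though without irradiated I and II the call was lost (adjusted p = 0.103). Uap1, which makes UDP-N-acetylglucosamine in the last step of that pathway, averaged 50.6 ± 0.343 CPM in irradiated and 55.6 ± 1.05 CPM in non-irradiated libraries (log2 fold change -0.13, adjusted p = 0.035). Papss1, which makes the sulfate donor PAPS, averaged 85.4 ± 3.89 CPM in irradiated and 95.9 ± 3.26 CPM in non-irradiated libraries (log2 fold change -0.17, adjusted p = 0.0377). Both calls were close to the threshold: Uap1 kept its call in 5 of the 15 alternatives and Papss1 in 8, and of the fits without 1 library Uap1 kept it without non-irradiated II alone (adjusted p 0.0463, against 0.0547 to 0.113 in the others) and Papss1 without irradiated III or non-irradiated II (0.0366 and 0.0364, against 0.0567 to 0.129 in the others). Without irradiated I and II both calls were lost, with adjusted p = 0.26 for Uap1 and 0.16 for Papss1. The other hexosamine genes Gfpt1 and Pgm3 were each at -0.11 (adjusted p = 0.100 for Gfpt1 and 0.178 for Pgm3, of which 28.3% of the exonic length lies opposite Dop1a), as was Ugdh, which makes UDP-glucuronic acid (adjusted p = 0.119). Ugp2, which makes UDP-glucose and is the most abundant per length of the list, was at 0.04 (adjusted p = 0.637).

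**Figure D5:**
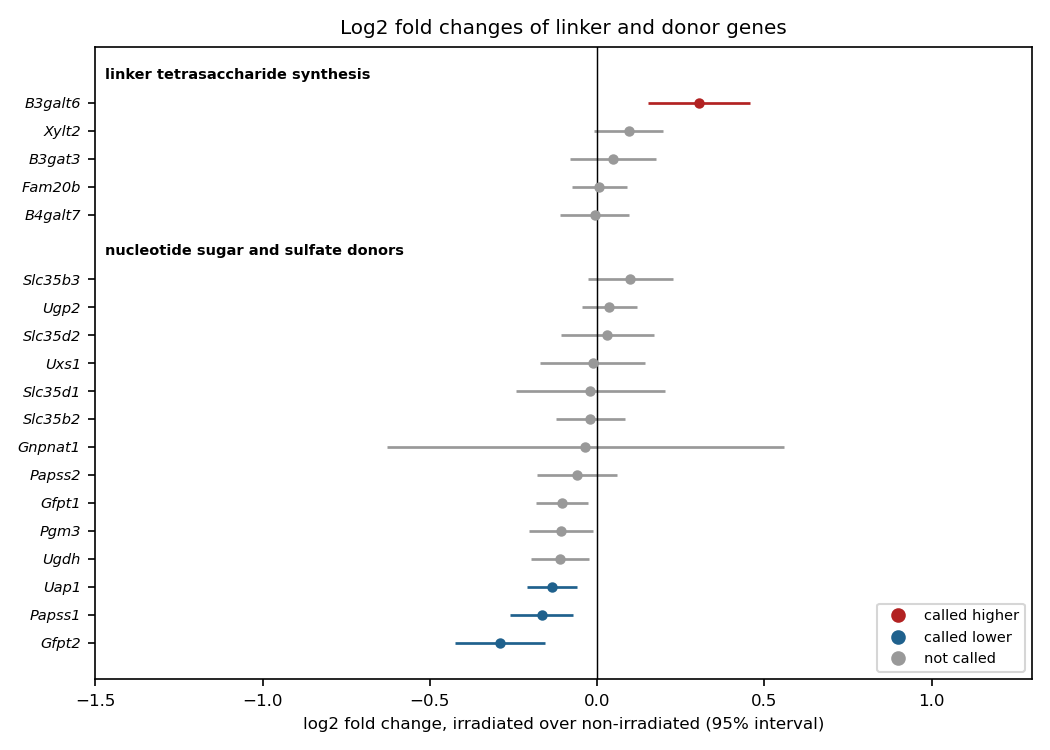
The log2 fold change, irradiated over non-irradiated, with its 95% interval for the tested genes of the linker and donor lists, grouped by list; colour marks the edgeR call. Gfpt2 at -0.29, Papss1 at -0.17 and Uap1 at -0.13 are called lower and B3galt6 at 0.30 is called higher.

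In the list of the linker that joins chain to core protein, 1 of 5 tested genes rose, beside 2.59% of all tested genes. B3galt6, a galactosyltransferase of the linker, stood at 10.3, 10.9, 12.2 and 10.9 CPM in irradiated I to IV, against 8.55, 9.06, 9.18 and 9.11 CPM in non-irradiated I to IV. The groups were separate, with irradiated III the highest (log2 fold change 0.30, SE 0.07, edgeR adjusted p = 0.0199). The call was lost without irradiated III (adjusted p = 0.0694) and without non-irradiated I (adjusted p = 0.0552). The linker galactosyltransferase B4galt7, the most abundant of the list per union of exons (16.5 RPKM, beside 13.9 RPKM for B3gat3; with the longest transcripts, 21.8 and 22.5 RPKM), was at -0.01 (adjusted p = 0.953).

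No gene was called by edgeR in the lists of heparan sulfate chain synthesis (12 tested), chondroitin and dermatan sulfate synthesis (14 tested), glycosaminoglycan breakdown (14 tested) and other core proteins (11 tested). At an unadjusted p under 0.05 these lists had 5, 3, 1 and 2 genes, beside 3228 of 15259 tested genes. DESeq2 called 2 in the heparan sulfate list and 0 in the other lists. The 2 DESeq2 calls were Ndst1, the abundant N-sulfating enzyme, with 297 ± 2.86 CPM in irradiated and 331 ± 27.0 CPM in non-irradiated libraries (edgeR log2 fold change -0.16, adjusted p = 0.074), and the epimerase Glce, with 166 ± 2.09 CPM in irradiated and 179 ± 2.63 CPM in non-irradiated libraries (edgeR log2 fold change -0.11, adjusted p = 0.0552). Both are enzymes that act on the chain inside the Golgi, before the extracellular sulfatases. The most abundant genes per length of the remaining lists were the dermatan sulfate epimerase Dse at -0.09 (adjusted p = 0.144), the lysosomal hexosaminidase subunit Hexa at -0.02 (adjusted p = 0.829, with 12.8% of its exonic length opposite Tmem202) and betaglycan (Tgfbr3), a TGF-beta co-receptor, at -0.10 (adjusted p = 0.191).

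Among 9 tested proteins that bind hyaluronan besides the members, Hmmr alone was called, beside 4.15% of all tested genes called lower. Hmmr, named as a hyaluronan receptor and also known as a mitotic spindle protein, stood at 15.8, 13.4, 13.7 and 13.9 CPM in irradiated I to IV, against 21.9, 28.6, 22.3 and 29.3 CPM in non-irradiated I to IV. The groups were far apart, with a log2 fold change of -0.84 (SE 0.10, edgeR adjusted p = 0.000162), called in all 15 alternatives. The hyaluronan receptor layilin (Layn), the most abundant of the list per length, was at -0.15 (adjusted p = 0.141).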

How the data were processed

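The deposited values are read counts per Ensembl gene, whole numbers that the authors did not normalize, in 1 file per library. The submitters' processing notes name featureCounts 1.5.0-p1, STAR 2.5.2a, bcl2fastq 2.20.0.422 and the mm10 build. Annotation release, strand setting and multiply mapped reads are not described in the sources used here, so genes that overlap another are uncertain. Per the labels, polyA RNA was extracted with a Qiagen RNeasy mini kit.

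GENCODE M21 (GRCm38) gave symbols, coordinates and exonic lengths for 55394 of 55573 identifiers; the other 179 held 0.0223% of counts. Samples were grouped by title. In edgeR 4.0.16 (R 4.3.3), filterByExpr (minimum count 10, minimum total 15) kept 15259 genes, which were scaled by TMM and fitted with group as the sole term over all 8 libraries. Quasi-likelihood p-values were adjusted by Benjamini-Hochberg over all tested genes and called under 0.05. The SE is the size of the log2 fold change over the root of F. RPKM used the union of exons. Members and gene lists were chosen with earlier results of these data known. Library values are given for called members, the most abundant member of each class and members with at least 5 CPM and a log2 change of at least 0.2; pathway genes named are the called ones and the most abundant per length. Hapln3, Ecm2, Glce, Gfpt1, Pgm3 and Ugdh were added after their values were seen. Scripts were tested on simulated data. Alternatives were RLE factors, DESeq2 1.42.0, no filter beyond 1 count, at least 1 CPM in 4 libraries, the replicate number as a block, each library left out and, chosen after seeing the data, irradiated I and II left out and GC and length trends removed by loess (span 0.5).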

Additional observations from a re-analysis of the deposited data

Results flagged for a closer look

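In each group of 4 libraries, the gap between the extreme library and its nearest neighbour was divided by the range of the group, over 68 groups of member values. In 4 of them the quotient was above Dixon's 95% critical value for 4 samples, which chance passes in about 1 of 20 groups. Perlecan (Hspg2) stood at 438 CPM in irradiated III, below the 502 to 509 CPM of the other irradiated libraries (quotient 0.9). Cspg4 stood at 0.515 CPM in irradiated II, below the 0.826 to 0.857 CPM of the other irradiated libraries (quotient 0.91). Heparanase (Hpse) stood at 2.93 CPM in irradiated IV, above the 2.32 to 2.42 CPM of the other irradiated libraries (quotient 0.837). Glypican 6 (Gpc6) stood at 10.0 CPM in non-irradiated I, above the 7.75 to 7.82 CPM of the other non-irradiated libraries (quotient 0.968); without that library its log2 fold change was -0.32 (edgeR adjusted p = 0.0387).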

How the results depend on the processing

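Of 761 single-gene values under 15 alternatives, 693 kept their direction and side of the threshold. Most of the 761 belong to genes that were not called in the main fit. A call was lost in 24 values, all of called genes, and gained in 16, and the sign turned in 28. Members called higher numbered 1, and 2 with DESeq2 (Sulf2 and Ext1) and without non-irradiated II (Sulf2 and Hapln3), a range of 1 to 2 over the fits without 1 library; members called lower numbered 3, with a range of 2 to 5 over those fits, the 5 without non-irradiated III adding Ogn and Hspg2. The labels state no pairing, so the samples were not treated as paired. Deviations of same-numbered libraries correlated at 0.025, -0.033, 0.275 and 0.147 (I to IV), and those of differently numbered ones at -0.226 to 0.148. These values cannot decide whether the numbers mark pairs. With the replicate number as a block, 5 members were lower (Ogn and Hspg2 added). Over all genes, 395 were higher and 634 lower; without 1 library the counts ran from 221 to 402 (234 without irradiated III, 221 without irradiated IV, 257 without non-irradiated I) and from 415 to 611 (415 without irradiated IV). Without any filter beyond 1 count 648 were higher, and without irradiated I and II 295 were lower. Of the other chain genes, 0 to 2 were higher and 2 to 7 lower without 1 library, and 1 was lower without irradiated I and II; no cause was tested.

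Changes of sign occurred only in genes that were not called. Over the fits without 1 library the log2 fold change ran from -0.012 to 0.096 for Vcan, -0.132 to 0.03 for Has1, -0.066 to 0.013 for Has2, -0.028 to 0.146 for Has3, -0.037 to 0.038 for Hyal1, -0.012 to 0.091 for Agrn, -0.037 to 0.008 for Sdc1, -0.102 to 0.009 for Sdc3, -0.078 to 0.019 for Gpc1, -0.026 to 0.287 for Gpc2, -0.043 to 0.104 for Gpc4, -0.051 to 0.354 for Prg4, -0.032 to 0.021 for B4galt7 and -0.049 to 0.025 for Hexa. Without irradiated I and II it was -0.04 for Has3, -0.025 for Agrn, -0.122 for Gpc4 and 0.014 for Hexa, and with at least 1 CPM required it was 0.002 for Hyal1. Cspg4 and Prg4 got no adjusted p from DESeq2 and were not tested at 1 CPM. No alternative moved the median of all genes by more than 0.0045 on the log2 scale, the value with at least 1 CPM required. RLE factors moved it by 0.0017, which is no check on the scaling, since TMM and RLE both take most genes as unchanged. Members under 1 CPM had too few counts for small changes to be detectable.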
